A study of Homo sapiens and Mus musculus with 10 samples.

Results

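The nuclear-encoded genes of the mitochondrial respiratory chain were followed through 7 RNA libraries of HEK293T cells, an established human embryonic kidney line. Members were all rows of the deposited human count tables whose symbol starts with NDUFA, NDUFB, NDUFC, NDUFS, NDUFV, UQCR, ATP5 or COX4 to COX8, together with SDHA, SDHB, SDHC, SDHD, CYC1 and CYCS. The rule found 99 rows among 16606 symbols, of which 96 stood in the table of the stress set and 93 in that of the genotype set. For 78 of them both tables counted the same transcript, and these were tested among 10368 shared transcripts. By complex, the 99 rows held 36 genes of complex I, 4 of complex II, 10 of complex III, 16 of complex IV and 19 of complex V, besides CYCS, 8 NDUFAF assembly factors, 4 noncoding or pseudogene rows and ATP5S.

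The stress set held 1 library each of wild-type (WT) cells deprived of glucose (GD) for 24 h, WT cells given 300 nM thapsigargin (TG) for 6 h, and WT mock cells. Thapsigargin inhibits the SERCA pumps that load calcium into the ER, and the drop in ER calcium causes ER stress. The genotype set held 1 library each of UFD1s-deficient GD, UFD1s-deficient mock, WT GD and WT mock cells. The labels call the mutant UFD1s-deficient and do not say how it was made or whether it is 1 clone, and nothing in them says that libraries came from separate cultures. The p-values therefore measure how far the response varied between pairs of libraries, which may be technical. A further 3 libraries of the mouse line N2a were not analysed here.

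Complexes I and II pass electrons from NADH and succinate to ubiquinone, complex III passes them on to cytochrome c, and complex IV uses them to reduce oxygen. Complexes I, III and IV pump protons out of the matrix, and complex V, the ATP synthase, uses the gradient to make ATP. Cells without glucose depend on this chain for most of their ATP, while cultured cells with ample glucose draw much of theirs from glycolysis.

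Libraries held 11461365 to 19024327 counted reads, and members took 0.617% to 0.923% of them. The row of the ribosomal RNA precursor RNA45SN5 held 10.7%, 8.31% and 7.73% of the reads of stress-set GD, TG and mock, and the genotype table has no such row. The label HEK293T was checked against 6 marker genes: VIM, CDH2 and NEFL were well counted (VIM at 614 to 1331 CPM, reads scaled to library size), while NEFM, KRT8 and KRT18 were below 7 CPM in each library that lists them. Markers of fibroblasts, leukocytes, liver and endothelium summed to 16.2 and 25.1 CPM in stress-set GD and TG and to 32.3 CPM in stress-set mock, nearly all from COL1A1 and LUM. They summed to 35.2 and 20.8 CPM in deficient and WT GD, against 70.7 and 56.0 CPM in deficient and WT mock, and their part in the results was not tested. Between the sets, WT mock levels differed by a median of 0.40 on the log2 scale over all shared transcripts and by 0.31 over members, so levels were compared within a set. The UFD1 row checks nothing about the genotype, since neither table is stated to count the altered part.

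Per length, ATP5F1B, the catalytic beta subunit of complex V, stood highest, at 1140 CPM per kilobase in genotype-set WT mock and 1075 CPM per kilobase in stress-set WT mock. The next members in genotype-set WT mock belonged to complex IV, namely COX6A1 at 378, COX8A at 362, COX7C at 314 and COX7B at 273 CPM per kilobase. COX8A stood at 85.3 CPM per kilobase in stress-set WT mock, so this order held in 1 set only. Members without a length were not ranked, among them COX4I1 at 214 CPM in genotype-set WT mock. The length was that of the longest GENCODE transcript matched to a row, such as 3665 bases for ATP5F1E, which lowers the value of such rows. Tissue forms were scarce: COX6B2, COX7A1 and COX8C were listed in the stress table alone and had fewer than 50 reads in each of its libraries. In all, 22 of 96 member rows in the stress table and 9 of 93 in the genotype table had fewer than 50 reads in every library. Among the 22 were NDUFS1, NDUFB3, NDUFB6, NDUFA12, ATP5MC2, ATP5MC3, ATP5ME, ATP5MF, ATP5MG, ATP5PD and ATP5PF, for which the stress table counts another transcript than the genotype table. A low count of such a row is a statement on that transcript and not on the gene.

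The first comparison asked how glucose deprivation changed the chain, with 3 pairs of GD and mock libraries in 1 fit (edgeR's quasi-likelihood test, adjusted p at most 0.05 over all shared transcripts). A total of 9 of 78 tested members were called, 8 lower and 1 higher in GD, a share of 11.5% against a background of 20.9% of all transcripts (11.1% lower and 9.75% higher). The 8 that fell came from complexes III (UQCR11), I (NDUFA8), IV (COX7B and NDUFA4) and V (ATP5IF1, ATP5MPL and ATP5MD), besides the electron carrier CYCS, and the 1 that rose was NDUFS4 of complex I. Values are shares of a library, so fewer cells of a kind and less RNA per cell cannot be told apart. The share of members called was lower than that of all transcripts, and the called changes were small, from -0.74 to 0.48 on the log2 scale. Without the deficient mock or without the deficient GD library 0 members were called, and the share of all transcripts called also dropped, to 4.86% and 4.76%. The fitted changes of the 9 kept their sign there, with UQCR11 at -0.75 in both cases. Without 1 deficient library the other has no partner, so only the WT pairs inform the GD change. Both fits therefore repeat that of the 4 WT libraries alone, where UQCR11 was also at -0.75. DESeq2 called 8 of the 9 (background 19.1%), and the genotype set alone called 17 of 93 members (background 32.9%).

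UQCR11, a small subunit of complex III, had 17.4, 26.0 and 44.4 CPM in GD cells of the stress set, the deficient line and the genotype-set WT, against 32.8, 42.4 and 66.0 CPM in their mock cells. Each GD library stood below its own mock library, while the groups overlapped across sets. UQCR11 fell by 0.73 on the log2 scale (SE 0.13, edgeR adjusted p = 0.00464).

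NDUFA8, an accessory subunit of complex I, had 64.7, 72.3 and 79.0 CPM in GD cells, in the same order of pairs, against 98.4, 109.9 and 100.03 CPM in mock cells. The groups did not overlap, and NDUFA8 fell by 0.52 (SE 0.10, edgeR adjusted p = 0.0072). CYCS, which encodes cytochrome c, had 288, 251 and 286 CPM in GD cells, against 385, 373 and 379.7 CPM in mock cells. Its mock libraries lay close together and all GD libraries stood below them, with a change of -0.47 (SE 0.08, edgeR adjusted p = 0.0053).

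Of complex IV, COX7B, a small subunit encoded on the X chromosome, had 68.7, 76.0 and 90.2 CPM in GD cells, against 111, 95.3 and 122 CPM in mock cells. It fell by 0.49 (SE 0.10, edgeR adjusted p = 0.0113), with no overlap of the groups. NDUFA4, named for complex I but a subunit of complex IV, had 81.2, 99.5 and 112 CPM in GD cells, against 126, 126 and 132 CPM in mock cells. It fell by 0.41 (SE 0.10, edgeR adjusted p = 0.0235), also with no overlap.

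Of complex V, ATP5IF1 encodes the inhibitor that keeps the synthase from hydrolysing ATP. It had 14.4, 9.88 and 10.5 CPM in GD cells, against 18.6, 19.2 and 19.4 CPM in mock cells, and fell by 0.74 (SE 0.18, edgeR adjusted p = 0.020). ATP5MD, a small membrane subunit, had 54.4, 61.5 and 50.9 CPM in GD cells, against 67.4, 83.4 and 73.6 CPM in mock cells, and fell by 0.43 (SE 0.10, edgeR adjusted p = 0.0169). Neither gene's groups overlapped. ATP5MPL, a small proteolipid of the synthase, had 9.47, 17.1 and 13.8 CPM in GD cells, against 16.6, 22.5 and 18.9 CPM in mock cells. Its groups overlapped across sets, and its fall of 0.55 (SE 0.17, edgeR adjusted p = 0.0444) was not called by DESeq2, where the adjusted p was 0.0786.

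NDUFS4, an accessory subunit of complex I whose loss causes Leigh syndrome, went the other way. It had 63.0, 41.4 and 40.5 CPM in GD cells, against 38.7, 32.2 and 31.3 CPM in mock cells, without overlap. NDUFS4 rose by 0.48 (SE 0.12, edgeR adjusted p = 0.0234), most in the stress set.

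**Figure D1:**
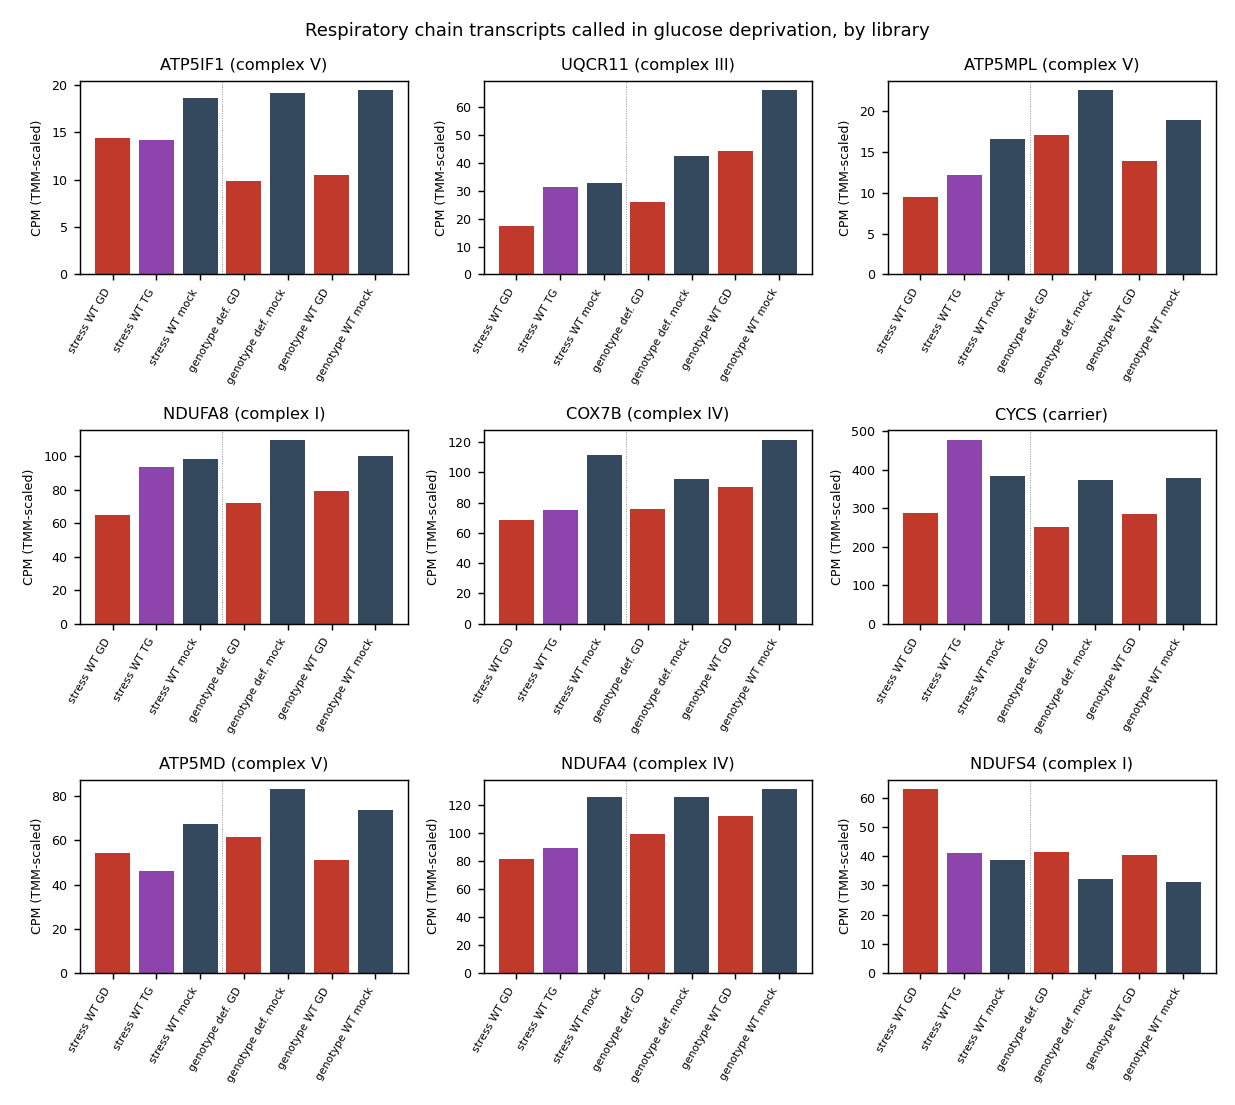
TMM-scaled CPM (vertical axes, linear, from 0) of the 9 members called in GD, 1 bar per library, with GD in red, TG in purple and mock in dark blue; each panel is 1 gene and the dotted line parts the stress set (left) from the genotype set. In all 8 panels of genes that fell, each red bar is below the mock bar of its own pair, and in the NDUFS4 panel each red bar is above it.

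The promoters of UQCR11, NDUFA8, CYCS and NDUFS4 are shown because these genes moved the most firmly among members in the GD fit or, for NDUFS4, in the opposite direction. They come from RefSeq on GRCh38.p14 and run from 250 bases before to 50 bases after the gene start, 5′ to 3′ on the gene's strand. UQCR11 is at chr19:1605413-1605712 (minus strand), NDUFA8 at chr9:122159730-122160029 (minus strand), CYCS at chr7:25125211-25125510 (minus strand) and NDUFS4 at chr5:53560389-53560688 (plus strand). Capitals mark the letters GCGCANGCG of nuclear respiratory factor NRF1 in UQCR11 and NDUFA8, and AAGATGGCG of YY1 in NDUFS4, each searched on both strands.
UQCR11: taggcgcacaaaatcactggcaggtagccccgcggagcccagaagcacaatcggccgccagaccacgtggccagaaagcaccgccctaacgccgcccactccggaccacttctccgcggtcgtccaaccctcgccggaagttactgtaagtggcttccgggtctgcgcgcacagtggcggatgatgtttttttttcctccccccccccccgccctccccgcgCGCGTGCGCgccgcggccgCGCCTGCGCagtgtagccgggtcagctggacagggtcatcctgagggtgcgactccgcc
NDUFA8: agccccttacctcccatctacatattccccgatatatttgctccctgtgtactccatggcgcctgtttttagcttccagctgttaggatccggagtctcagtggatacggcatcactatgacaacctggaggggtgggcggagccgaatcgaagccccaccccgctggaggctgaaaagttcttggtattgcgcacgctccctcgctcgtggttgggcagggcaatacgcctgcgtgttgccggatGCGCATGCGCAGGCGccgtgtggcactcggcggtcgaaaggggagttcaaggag
CYCS: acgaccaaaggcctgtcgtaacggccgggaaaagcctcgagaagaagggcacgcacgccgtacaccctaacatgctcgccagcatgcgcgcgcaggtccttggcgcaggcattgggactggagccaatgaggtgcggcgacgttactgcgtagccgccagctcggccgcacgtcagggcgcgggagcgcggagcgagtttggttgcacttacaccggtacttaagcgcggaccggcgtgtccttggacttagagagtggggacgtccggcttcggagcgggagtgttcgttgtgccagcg
NDUFS4: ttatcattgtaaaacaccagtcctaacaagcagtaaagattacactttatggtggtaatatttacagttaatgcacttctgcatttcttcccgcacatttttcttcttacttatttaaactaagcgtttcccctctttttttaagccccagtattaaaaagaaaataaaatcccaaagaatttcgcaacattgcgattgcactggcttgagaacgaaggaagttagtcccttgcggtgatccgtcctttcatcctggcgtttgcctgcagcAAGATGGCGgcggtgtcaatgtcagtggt
UQCR11 holds the NRF1 letters at 2 places and NDUFA8 at 3 overlapping ones (the motif is nearly its own complement, so strands can overlap), and CYCS holds none of the motifs searched in this window. NRF1, GABPA and YY1 are textbook regulators of respiratory genes. Of 86 genes of complexes I to V and CYCS, 70 had a RefSeq promoter. Among those 70, the NRF1 letters stood in 23 (32.9%), against 8.05% of 27305 promoters. The letters ACCGGAAG of GABPA stood in 5 (7.14%), against 2.32% of all promoters, and those of YY1 in 8 (11.4%), against 1.85%. Of the other called members, ATP5MPL held the NRF1 letters once, and COX7B, NDUFA4, ATP5IF1 and ATP5MD held none of the 3 motifs. The NRF1 and YY1 letters were set after a first count of longer forms, and the promoters compared were not matched for base content or expression. A match describes the letters and is not evidence of binding.

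By complex, members of complex V lay lowest in GD. The median fitted change was -0.29 for complex V (10 tested members), -0.15 for II (4), -0.12 for I (31), -0.06 for III (10) and 0.02 for IV (13), against -0.02 for all transcripts. In this fit over the 3 pairs all 10 members of complex V and all 4 of complex II lay below 0, as did 25 of 31 of complex I, 6 of 10 of complex III and 6 of 13 of complex IV. The sign for complex IV depends on scaling and on single libraries, since its median was -0.06 with library totals alone and -0.05 without either deficient library. Without the stress-set WT mock or WT GD library the median of complex III was 0.06 or 0.07, and that of complex II was -0.06 in both cases. Over the 5 complexes 51 of 68 members were below 0, against 5385 of 10368 transcripts. In the separate pairs the complex V median was -0.34 in the stress set, -0.18 in the deficient line and -0.28 in genotype-set WT. Its member ATP5MC1 changed by -2.13 in the stress set, with 18 reads in GD and 124 in mock. In the deficient and genotype-set WT pairs ATP5MC1 was higher in GD, by 0.30 and 0.63. Complex II had medians of -0.35, -0.04 and -0.08 in those pairs, with 2 of its 4 members below 0 in each genotype-set pair. Complex IV had medians of -0.10, 0.06 and 0.01 in those pairs, and complex III of -0.21, -0.01 and -0.02, so the stress-set pair lay lowest for each. Lower in GD in all 3 pairs were 6 of 10 members of complex V, 2 of 4 of complex II and 13 of 31 of complex I. The same held for 2 of 10 of complex III and 2 of 13 of complex IV, against 28.4% of all transcripts.

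**Figure D2:**
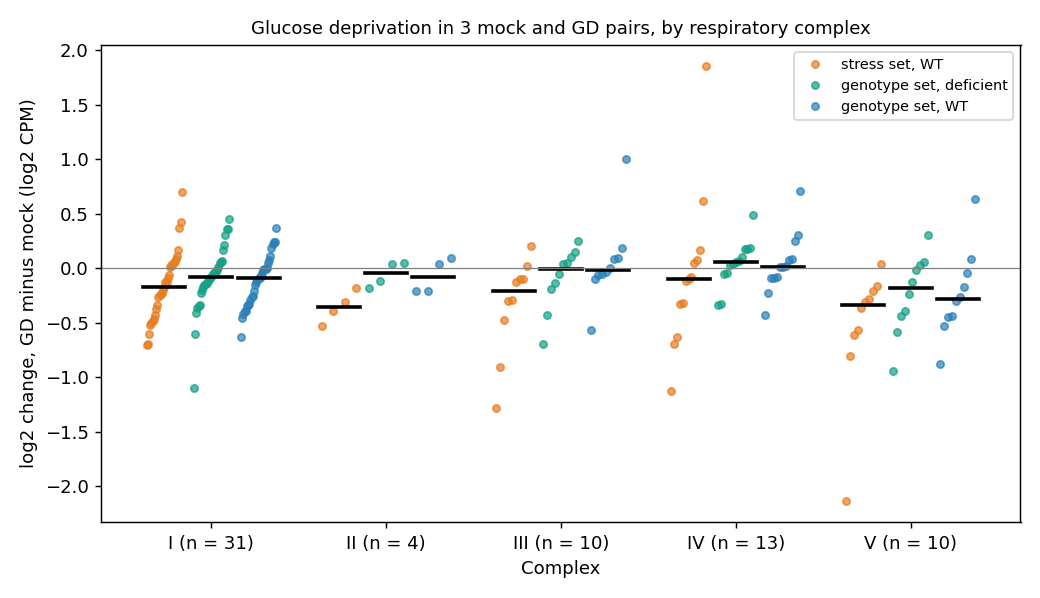
Difference in log2 CPM, GD minus mock (vertical axis), of each tested member by complex (horizontal axis), with 1 point per member and pair and black bars for medians; orange is the stress-set WT pair, green the deficient pair and blue the genotype-set WT pair. The bars of complex V lie below 0 in every pair (-0.34, -0.18 and -0.28), while those of complexes III and IV are near 0 in both genotype-set pairs.

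Summed over its members, complex V differed little between GD and mock in the genotype set and was lower in GD in the stress set. The summed CPM of the 10 complex V members was 2879 in deficient GD against 2938 in deficient mock, a ratio of 0.980 (95% interval 0.965 to 0.994, counting error only), and 2844 in WT GD against 2805 in WT mock, a ratio of 1.01 (0.999 to 1.03). In the stress set it was 2323 in GD against 2722 in mock, a ratio of 0.853 (0.841 to 0.866). ATP5F1B makes up most of these sums, with 1713, 2251 and 2222 CPM in GD cells of the stress set, the deficient line and genotype-set WT, against 1976, 2201 and 2097 CPM in mock cells. Its fitted change was -0.04 (SE 0.09, edgeR adjusted p = 0.818).

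The succinate dehydrogenase subunits of complex II were not called. SDHA, the flavoprotein, had a fitted change of -0.08 and SDHB, the iron-sulfur subunit, of -0.09. The membrane anchors SDHC and SDHD had changes of -0.30 and -0.20, with edgeR adjusted p = 0.149 and 0.128. CYC1, the cytochrome c1 of complex III, had a change of 0.01. The highest change in complex III with 50 or more reads was that of UQCRC2, a core subunit, at 0.12 (edgeR adjusted p = 0.325). COX7A2L, which joins complexes III and IV, had 150.2, 101 and 109.8 CPM in GD cells, against 98.0, 104 and 89.1 CPM in mock cells, and its change of 0.29 was not called (edgeR adjusted p = 0.126). Its relative COX7A2 had a change of 0.03.

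NDUFA4L2, a hypoxia-responsive relative of NDUFA4, had 3.92, 3.09 and 3.68 CPM in GD cells, against 0.996, 2.16 and 2.19 CPM in mock cells. With a change of 1.05 it stood highest of all members but had fewer than 50 reads in each library and was not called (edgeR adjusted p = 0.0963). UQCRHL, a near copy of UQCRH whose reads cannot be told apart with certainty, also stayed below 50 reads. The 6 tested NDUFAF assembly factors of complex I had a median change of 0.12, and none was called (edgeR). NDUFAF8 lay lowest, at -0.35.

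Of 43 assembly factors outside the rule, 32 were tested, and 4 rose and 2 fell in GD, against a background of 20.9%. LRPPRC, which binds mitochondrial mRNAs, rose by 0.55 (SE 0.09, edgeR adjusted p = 0.00326). COX10, which takes part in making the heme of complex IV, rose by 0.54, and UQCC2, a complex III assembly factor, by 0.44. SDHAF4 of complex II rose by 1.60 at 6 to 71 reads a library. The complex IV factors COA3 and COA1 fell by 0.57 and 0.46. Of 9 tested regulators only PPRC1, a coactivator of the PGC-1 family, was called (0.34, edgeR adjusted p = 0.0424). Of 5 tested carriers, the ADP/ATP translocases SLC25A6 and SLC25A5 rose by 0.45 and 0.31. Of 12 tested genes of the citrate cycle and pyruvate dehydrogenase 0 were called by edgeR. Neither the genotype comparison nor its interaction with GD called a gene of these lists with edgeR. In TG, FOXRED1 (58 reads in TG and 30 in mock) and COA3 (524 and 985) were past the 1.5-fold limit described next, of 28 assembly factors with 50 or more reads (background 23.5%), and so were 0 of 7 regulators, 0 of 10 citrate cycle genes and 0 of 4 carriers. None of the 13 mitochondrially encoded subunits was among the transcripts tested.

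The next comparison set TG against mock in the stress set, with 1 library each and therefore no test. A member counted as past the fold at a ratio of scaled reads of at least 1.5 in either direction, given at least 50 reads in 1 of the libraries. Of 74 members with that depth, 6 were past it, against 23.5% of 9116 transcripts, with 2 higher (12.5% of all transcripts) and 4 lower (11% of all). None passed a ratio of 2, against 8.85% of all transcripts.

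NDUFV3, a small subunit of the NADH-binding part of complex I, had 1247 reads in TG and 672 in mock, a ratio of 1.80 (95% interval 1.64 to 1.98, counting error only). NDUFS5, another complex I subunit, had 50 reads in TG and 27 in mock, a ratio of 1.79 (1.10 to 2.98). Both higher members thus belong to complex I, but the interval of NDUFS5 is wide. SDHC had 473 reads in TG and 783 in mock (0.585, interval 0.521 to 0.657), and the other complex II subunits had ratios near 1, with SDHA at 1.04. ATP5F1D, the delta subunit of the F1 stalk, had 127 reads in TG and 215 in mock (0.572, interval 0.456 to 0.716). COX6B1 of complex IV had 698 reads in TG and 1057 in mock (0.640, interval 0.581 to 0.705). UQCR10 of complex III had 96 reads in TG and 140 in mock, and at 0.664 (interval 0.507 to 0.867) it was just past the limit, while COX7B at 0.674 was just short of it.

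By complex, the median log2 change in TG over the tested members was 0.01 for complex I, -0.10 for II, -0.10 for III, -0.01 for IV and -0.34 for V, against -0.00 for all transcripts. All 10 tested members of complex V lay below 0, against 5220 of 10368 transcripts. All 10 also did with library totals alone, a scaling that moved the median of all transcripts to -0.12 and that of complex I to -0.10. The 6 NDUFAF factors lay above 0 (5 of 6 with library totals alone), against 5146 of 10368 transcripts, and their median was 0.21. They were led by NDUFAF4 with 1530 reads in TG and 1009 in mock, a ratio of 1.47 (1.36 to 1.59). CYCS had 479 CPM in TG and 385 CPM in mock, a ratio of 1.24 (1.21 to 1.28), whereas its GD library had 288 CPM. COX8A, the highest of complex IV with 50 or more reads, had a ratio of 1.28. NDUFA4L2 stood higher, with 49 reads in TG and 18 in mock, a ratio of 2.64 (1.51 to 4.81). The TG and GD values of the stress set share the mock library, so a like sign in both is no independent support. Side by side, COX6B1 had ratios of 0.640 in TG and 0.456 in GD, ATP5F1D of 0.572 and 0.652, SDHC of 0.585 and 0.691, and NDUFV3 of 1.80 and 0.957.

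**Figure D3:**
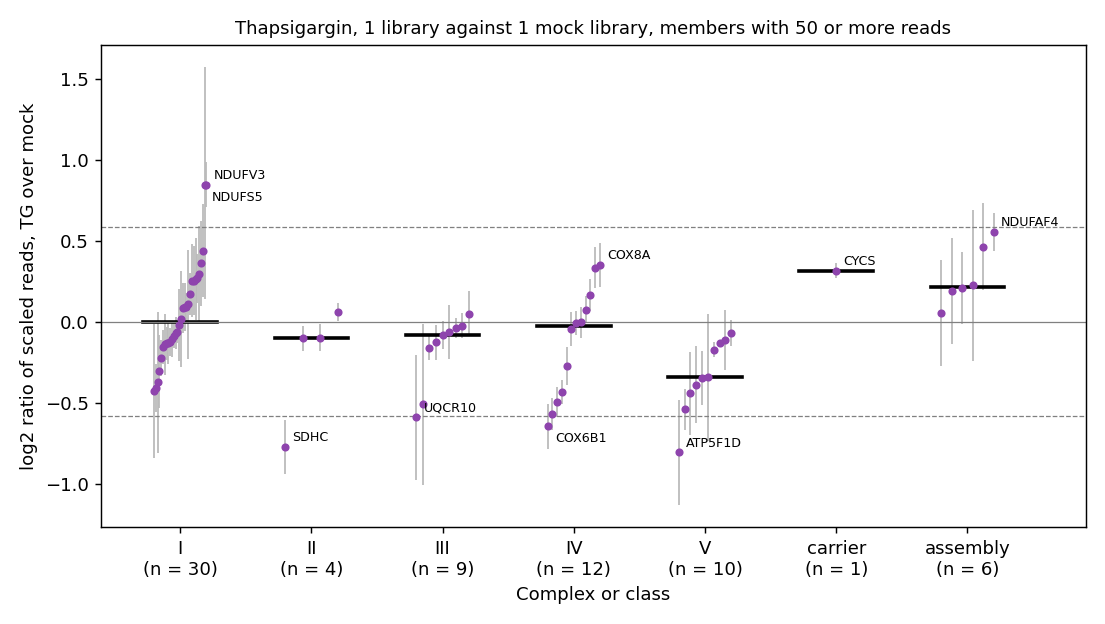
Log2 ratio of scaled reads, TG over mock (vertical axis), of the members with at least 50 reads in TG or mock, by complex or class (horizontal axis); points are members, grey bars are 95% intervals for counting error only, black bars are medians and dashed lines mark a ratio of 1.5 in either direction. The points of complex V lie below 0 and those of the assembly factors above 0, and 6 members lie past the dashed lines, NDUFV3 and NDUFS5 above and SDHC, ATP5F1D, COX6B1 and UQCR10 below.

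The last comparison set UFD1s-deficient cells against WT. No tested member was called by edgeR (0 of 78, against 1.11% of all transcripts), 10 had an unadjusted p under 0.05, against 1470 of 10368 transcripts, and DESeq2 called 1, UQCR11 (background 2.14%). With the genotype set alone 11 of 93 members were called, 10 of them lower, against 13.5% of all transcripts called in either direction. Without the stress-set WT mock or the stress-set WT GD library 11 of 78 were called, against 16% and 18.7% of all transcripts. The fits with 11 calls are nearly the same, since a stress-set library without its partner does not inform the difference. With 1 GD and 1 mock library of the deficient line, each genotype test takes the treatments as its repeats. Its error is how far the GD response varied between pairs, and no spread between lines of the same genotype was measured. These calls therefore hold no repeat of the genotype. UQCR11 had 26.0 and 42.4 CPM in deficient GD and mock cells, against 44.4 and 66.0 CPM in WT GD and mock cells. Both deficient libraries stood below both WT libraries, with a difference of -0.70 (SE 0.15, edgeR adjusted p = 0.0695). COX4I1, a regulatory subunit of complex IV, had 169 and 149.7 CPM in deficient GD and mock cells, against 226 and 214 CPM in WT GD and mock cells. Its difference was -0.47 (SE 0.10, edgeR adjusted p = 0.0737). UQCRC2 had 182 and 169 CPM in deficient GD and mock cells, against 243 and 229.5 CPM in WT GD and mock cells, a difference of -0.43 (SE 0.10, edgeR adjusted p = 0.0941).

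Many of the low members lay on a pair of chromosomes, a split chosen after their values were seen. All 9 tested members on chromosomes 7 and 16 lay below 0, with a median of -0.43, against 28 of 69 members on other chromosomes, with a median of 0.02. Members on chromosomes 7 and 16 did not stand apart from their chromosomes in this. Of 921 transcripts on chromosomes 7 and 16, 90.0% lay below 0, with a median of -0.39, against 44.6% of 9402 on other chromosomes, with a median of 0.03. In the genotype set alone, 6 of 10 members on chromosomes 7 and 16 were called lower, against 39.3% of all transcripts there. Elsewhere 4 of 83 members were called lower, against 4.45% of all transcripts. On chromosome 16 the members were NDUFAB1 (-0.52), COX4I1 (-0.47), UQCRC2 (-0.43) and NDUFB10 (-0.39), and the median of all its transcripts was -0.45. On chromosome 7 they were NDUFA5 (-0.45), NDUFB2 (-0.34), NDUFA4 (-0.12), CYCS (-0.10) and the antisense row NDUFB2-AS1 (-1.52, at few reads), and the median of all its transcripts was -0.37. COX6A1 on chromosome 12 lay at -0.33, and the 50 tested transcripts nearest to it had a median of -0.32. UQCR11 on chromosome 19 lay further down than its neighbours, whose median was -0.13. On chromosome X all 4 tested members lay below 0, with a median of -0.31, against 0.002 for all its transcripts. They were UQCRBP1 (-0.37), NDUFB11 (-0.32), COX7B (-0.30) and NDUFA1 (-0.18). The medians of their neighbours ran from -0.20 (NDUFB11) to 0.08 (NDUFA1). What the chromosome pattern stems from was not tested.

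**Figure D4:**
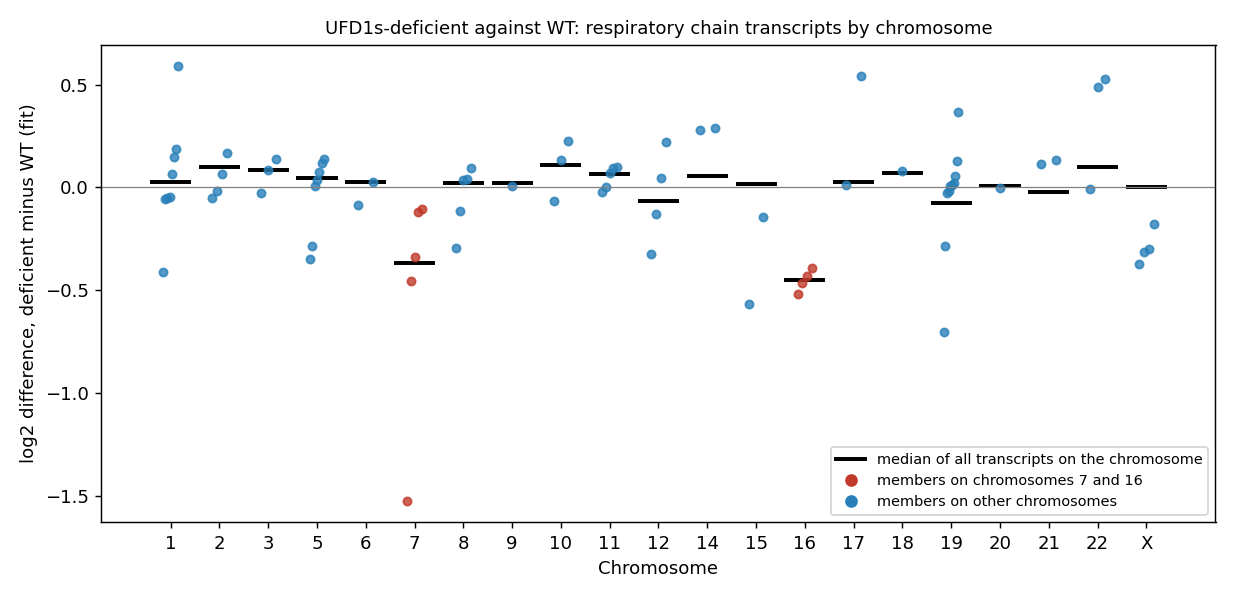
Fitted log2 difference, deficient minus WT (vertical axis), of each tested member (points) by chromosome (horizontal axis), with black bars for the median of all tested transcripts on that chromosome; red points are members on chromosomes 7 and 16. The bars of chromosomes 7 (-0.37) and 16 (-0.45) lie well below 0 with the members around them, and UQCR11 is the lowest point on chromosome 19 (-0.70).

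By complex, the median difference was 0.04 for I, 0.12 for II, -0.17 for III, -0.11 for IV and 0.02 for V, against 0.01 for all transcripts. Of the members on chromosomes 7 and 16, NDUFA5, NDUFB2, NDUFAB1 and NDUFB10 belong to complex I. UQCRC2 belongs to complex III, and COX4I1 and NDUFA4 to complex IV. Without them the median was 0.065 for complex I, -0.06 for III and -0.08 for IV. Leaving out any other complex III member below that complex's median would give the same value as leaving out UQCRC2. The shift in complex III therefore cannot be tied to the chromosome. With a mean of at least 10 CPM its median was -0.0088. All 4 complex II members lay above 0, from 0.01 (SDHA) to 0.19 (SDHC), and none was called (edgeR). The highest differences among genes of the complexes with 50 or more reads were those of ATP5MC1 at 0.54, UQCR10 at 0.53 and NDUFA3 at 0.37, each with a large error and none called (edgeR adjusted p = 0.745, 0.551 and 0.507). Whether the response to GD differed by genotype was tested by an interaction term. It called 0 of 78 members and 0% of all transcripts with edgeR and 0 members with DESeq2. No member had an unadjusted p under 0.05, against 123 of 10368 transcripts, and the fit left 1 residual degree of freedom. The lowest unadjusted p of a member was that of COX7A2L, 0.0900, at a difference in response of -0.49 (deficient minus WT). CYCS changed by -0.57 in the deficient pair, against -0.42 in the stress-set and -0.41 in the genotype-set WT pair, with an interaction of -0.15.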

How the data were processed

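The authors deposited raw counts, unnormalized whole numbers of reads, for 1 RefSeq transcript per symbol. The submitters' processing notes name Bowtie2, bedtools, cutadapt and FastQC, and list hg19 and mm10 as builds. How reads were counted, and whether by strand, is not given in the sources, so reads of overlapping or antisense genes cannot be told apart. Per the labels' protocols, TRIzol RNA went into a TruSeq Ribo Profile library kit. The lowest row sum in the genotype table is 75 reads, so scarce members may not be listed there. The authors' 4 comparison columns were not used.

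Members and lists were chosen with earlier results of these data known. Shared transcripts of the 6 mock and GD libraries were fitted with edgeR 4.0.16 (R 4.3.3; quasi-likelihood, TMM, default expression filter, set, genotype and treatment as terms), which left 2 residual degrees of freedom, with Benjamini-Hochberg adjustment over 10368 transcripts. DESeq2 1.42.0 was an alternative. Changes of single pairs are differences in log2 CPM with a prior count of 2, scaled within each table. TG ratios are ratios of TMM-scaled counts with exact conditional 95% intervals. The text names called members, SDHA to SDHD, CYC1, CYCS, the extremes of each complex, members past the fold, scarce members and, chosen once their values were known, a few others. The class of noncoding rows was set after the rows were seen. On simulated counts for the GD comparison, over 10368 transcripts, the test found 37% of the 1.5-fold changes and 85% of those of 2-fold, and 8 of 130 calls were false. For the genotype comparison it found 17% and 71%, and 6 of 94 calls were false. The simulated counts had 1 common dispersion (0.0192) for all transcripts and no difference between sets. Only a small part of the transcripts was changed. The real counts differ from these settings, so the shares describe the simulation only. Chromosomes and gene order came from RefSeq on GRCh38.p14, and lengths from GENCODE transcripts for 89 of 99 members. The NRF1 and YY1 letters were shortened by 1 base after a first count of longer forms.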

Additional observations from a re-analysis of the deposited data

How the results depend on the processing

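The number of members called in GD was 17 with the genotype set alone, 0 with the 4 WT libraries alone, 0 without the set term, and 0 to 18 when each library was left out in turn. The share of all transcripts called moved with it, to 32.9%, 4.74%, 0.231% and 4.76% to 39%. The count was 0 without either deficient library, and 17 and 18 without the stress-set WT mock and WT GD libraries. For deficient against WT it was 1 with DESeq2 (2.14% of all transcripts), 11 with the genotype set alone (13.5%) and 0 to 11 with a library left out (0.0482% to 18.7%). TG members past the fold numbered 0 at 2-fold (8.85% of all transcripts), 13 with 20 reads (28.5%) and 10 with library totals alone (24.3%).

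With library totals alone the complex I median in GD was -0.20, and the TG medians of complexes I to V were -0.10, -0.22, -0.22, -0.12 and -0.46. With a mean of at least 10 CPM the TG median of complex III was -0.0716. Leaving out a library gave GD medians of -0.188 to -0.0607 for complex II, -0.145 to 0.0666 for complex III, -0.0461 to 0.0418 for complex IV and -0.437 to -0.219 for complex V. It gave deficient against WT medians of 0.00080 to 0.053 (I), 0.047 to 0.18 (II), -0.17 to -0.0067 (III), -0.18 to -0.069 (IV) and 0.021 to 0.14 (V). The complex I median there was 0.035 with library totals alone, 0.044 with RLE factors, 0.022 with NDUFA4 in complex I, 0.017 with a mean of at least 10 CPM and 0.065 without chromosomes 7 and 16, an alternative chosen after seeing the data. RLE factors gave 0.13 for complex II and 0.029 for complex V. A mean of at least 10 CPM gave -0.0088 for complex III and -0.00053 for complex V, and leaving out chromosomes 7 and 16 gave -0.056 for complex III. Except where fewer samples or members entered, the cause was not tested. The GD changes of the 9 called members kept their direction under each alternative run, and other single genes were not followed across the alternatives. The labels give no replicate numbers, but with set and genotype as terms each GD library is compared with the mock library of its own set and line. The interaction with a library left out was not run, since no residual degrees of freedom remain. Intervals cover counting error only, and with 1 library per condition and set the spread between repeats is unknown.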
